A study of Mus musculus with 6 samples.

Results

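The transcripts of 10 inflammatory and suppressive cytokines were followed in M-MDSCs, the monocytic kind of myeloid-derived suppressor cell, which is immature and restrains T cells. The 10 genes are Il1a, Il1b, Il1rn, Il6, Il10, Il12b, Il18, Tnf, Tgfb1 and Osm. Members were the array probes carrying 1 of these names, which gave 1 probe per gene and 55 spots per array, among 22096 genes tested. RNA came from cells sorted out of the bone marrow or lungs of C57BL/6 mice. Mock mice, given as 6 to 8 weeks old, had received vehicle, and treated mice had received azacytidine, which inhibits DNA methyltransferases, together with entinostat, which inhibits histone deacetylases. Each preparation was a pool, of 3 to 6 treated mice or of 1 to 2 mock mice. Each of 6 two-colour Agilent arrays, 3 per tissue and described as biological replicates, carried mock RNA in Cy3 and treated RNA in Cy5. Treated RNA was in Cy5 on every array, so an effect of the dye cannot be told apart from one of treatment. Each tissue occupied a single slide, so an effect of the slide cannot be told apart from one of tissue.

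Cytokines are secreted proteins through which myeloid cells direct other immune cells. IL-1 and TNF start inflammatory programmes through NF-kB, IL-6 and oncostatin M act through receptors that share gp130 and activate STAT3, and IL-10 and TGF-beta restrain T cells and macrophages. MDSCs are known for releasing cytokines of both kinds.

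Promoters of 8 of the 10 members were found in the RefSeq promoter table (GRCm38.p6), those of Il10 and Osm being unmatched. The 250 bases upstream of the start are shown for Il1a (chr2:129309973-129310222, minus strand), Il1b (chr2:129371140-129371389, minus strand), Tnf (chr17:35202008-35202257, minus strand) and Tgfb1 (chr7:25686752-25687001, plus strand), because they span a range from few to many CpG sites, the sites at which DNA methyltransferases act. They read 5′ to 3′ on the gene's own strand, with CG and TATAAA in capitals.
Il1a: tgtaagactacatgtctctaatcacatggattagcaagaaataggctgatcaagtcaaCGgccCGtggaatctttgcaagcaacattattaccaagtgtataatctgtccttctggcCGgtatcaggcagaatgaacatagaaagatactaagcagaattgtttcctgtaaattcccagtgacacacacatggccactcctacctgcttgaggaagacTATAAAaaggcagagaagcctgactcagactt
Il1b: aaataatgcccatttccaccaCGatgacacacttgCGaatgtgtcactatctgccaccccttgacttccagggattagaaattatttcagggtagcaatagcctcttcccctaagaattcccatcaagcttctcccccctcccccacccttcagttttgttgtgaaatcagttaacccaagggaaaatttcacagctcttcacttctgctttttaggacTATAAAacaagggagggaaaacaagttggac
Tnf: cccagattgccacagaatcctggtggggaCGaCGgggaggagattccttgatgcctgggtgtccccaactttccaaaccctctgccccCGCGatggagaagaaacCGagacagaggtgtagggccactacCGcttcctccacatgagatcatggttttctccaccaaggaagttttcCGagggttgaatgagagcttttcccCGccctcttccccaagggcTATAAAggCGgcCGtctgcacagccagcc
Tgfb1: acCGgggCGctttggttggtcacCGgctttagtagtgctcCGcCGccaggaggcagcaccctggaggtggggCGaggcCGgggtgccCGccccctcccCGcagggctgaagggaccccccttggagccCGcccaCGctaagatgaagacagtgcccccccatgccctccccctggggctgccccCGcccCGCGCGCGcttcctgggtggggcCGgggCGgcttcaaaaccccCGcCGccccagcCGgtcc

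Il1a held 3 CpG sites in this window, Il1b 2, Tnf 10 and Tgfb1 21, against a median of 6 over 32851 promoters. Il6 and Il12b held 3 each and Il18 held 1. The 3 annotated starts of Il1rn held 1, 4 and 4. The motif TATAAA lay on the gene's strand 32 bases before the start in Il1a, 31 in Il1b and 29 in Tnf, and on the other strand in Il18. It was present, on either strand, in 12.4% of all promoters of this length. TGANTCA, the AP-1 motif, which reads the same on both strands, occurred once each in Il1a, Il6 and the first start of Il1rn, and in 6.7% of all promoters. A match is a description of the letters only.

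Between 49.9% and 69.5% of spots were well above background per array and channel, and no spot was saturated. Each member was represented by a single 60-base probe, with Il1b, Il10, Il12b, Tnf and Tgfb1 printed in 10 spots per array and the others in 1. On mm9 the files place the probes of Il1a at chr2:129125994-129126053, Il1b at chr2:129190347-129190406, Il1rn at chr2:24205094-24205153, Il10 at chr1:132920943-132921002 and Tnf at chr17:35336795-35336854, and the exons or untranslated regions under them were not analysed here. The number of arrays limits the precision. All 10 passed the background filter, but Il1a, Il10 and Il12b were not well above background on any bone marrow array in either channel, and Il6 was so only on 1 treated bone marrow array. The 9 measured markers of monocytic MDSCs were well above background in all 4 combinations of tissue and treatment, and so were the 9 measured neutrophil markers.

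In lung, 5 of the 10 cytokine genes rose with treatment, namely Il1a, Il1b, Il1rn, Il10 and Tnf, by 0.55 to 1.42 on the log2 scale, and 5 did not pass. Over all genes, 20% rose in lung. In bone marrow Il1rn alone rose, 9 members did not pass, and 7.25% of all genes rose. The median log2 ratio of the members was 0.48 in lung and -0.03 in bone marrow, beside 0.01 and 0.02 over all genes. With median centring of each array in place of loess, Il1a and Il1rn still passed in lung, the other 3 did not, and the bone marrow call of Il1rn ended. A positive log2 ratio means more transcript in treated cells, following the dyes in the labels. The deposited matrices head their columns the other way, mock over treated, although their values follow Cy5 over Cy3.

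**Figure D1:**
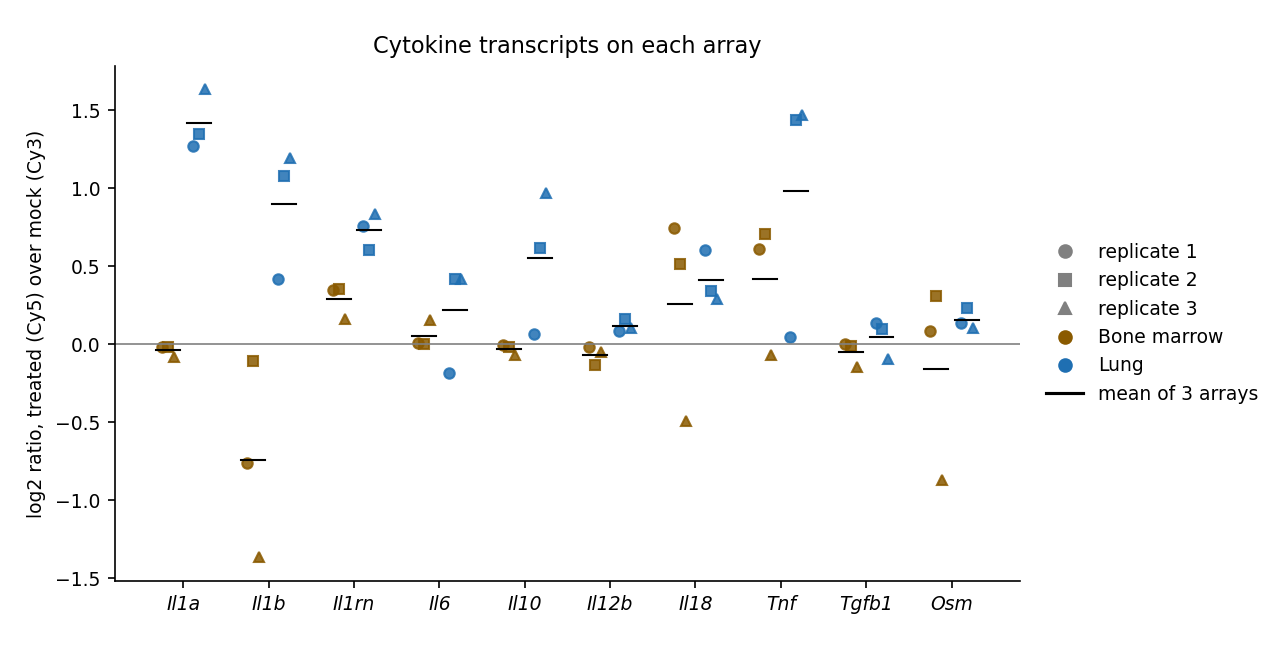
Log2 ratio of treated (Cy5) over mock (Cy3) signal of each cytokine gene on each array, bone marrow brown and lung blue, with the symbol giving the replicate and the black line the mean of 3 arrays. All 3 lung points lie above all 3 bone marrow points for Il1a, Il1b, Il1rn, Il10 and Il12b, while lung replicate 1 sits near 0 for Tnf and Il10. The bone marrow signals of Il1a, Il10 and Il12b were not well above background, and the tissue differences of Il10 and Il12b did not pass. The share of all genes without overlap was not counted.

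Of the IL-1 genes, Il1a, which encodes the IL-1 form held inside cells as an alarm signal, gave log2 ratios of 1.27, 1.35 and 1.63 on the 3 lung arrays and of -0.01, -0.01 and -0.08 on the bone marrow arrays. The lung arrays lay close together and well apart from those of bone marrow. The mean in lung was 1.42 ± 0.19 (SD, n = 3), a 2.67-fold rise (limma adjusted p = 6.04e-05). In bone marrow the probe was not well above background in either channel, so the values near 0 there do not show an unchanged transcript. Il1b, which encodes the secreted form cleaved by caspase-1, gave 0.42, 1.08 and 1.20 in lung and -0.76, -0.11 and -1.37 in bone marrow. All lung arrays were above 0 and all bone marrow arrays below it. The lung mean was 0.90 ± 0.42 (SD, n = 3), 1.86-fold (limma adjusted p = 0.0206), and the bone marrow mean of -0.74 ± 0.63 (SD, n = 3) did not pass (adjusted p = 0.0698, 95% interval -1.28 to -0.20). In lung Il1b no longer passed once replicate 2 was left out (0.81, adjusted p = 0.1), nor once replicate 3 was (0.75, adjusted p = 0.0918). The bone marrow value ran from -1.06, without replicate 2, to -0.43, without replicate 3, and it passed with the background of negative controls (-0.84, adjusted p = 0.0442) or without lung replicate 1 (adjusted p = 0.0459).

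Il1rn encodes the IL-1 receptor antagonist, which occupies the receptor without signalling. Its log2 ratios were 0.76, 0.61 and 0.84 in lung and 0.35, 0.35 and 0.16 in bone marrow, all above 0 and without overlap between tissues. The rise was 0.74 ± 0.12 (SD, n = 3) in lung (limma adjusted p = 0.00039) and 0.29 ± 0.11 (SD, n = 3) in bone marrow (adjusted p = 0.0386). The bone marrow call was narrow and ended when any single bone marrow array was left out (adjusted p 0.0596 to 0.189). Il18, another caspase-1 substrate and an inducer of interferon gamma, gave 0.61, 0.34 and 0.29 in lung and 0.74, 0.52 and -0.49 in bone marrow. Bone marrow replicate 3 stood below the rest, and neither mean passed (lung 0.41 ± 0.17, adjusted p = 0.171, and bone marrow 0.26 ± 0.66, adjusted p = 0.432, SD, n = 3). Without bone marrow replicate 3 both means passed, at 0.63 in bone marrow (limma adjusted p = 0.0272) and 0.41 in lung (adjusted p = 0.0115, the spread being shared between tissues).

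Tnf, the gene of the NF-kB-activating cytokine TNF, gave log2 ratios of 0.05, 1.44 and 1.47 on lung arrays 1, 2 and 3. Replicate 1 showed almost no difference, while the other 2 arrays showed a 2.71-fold and a 2.77-fold difference. The treated lung levels were nearly equal, at log2 intensities of 11.24, 11.29 and 11.32, whereas the mock levels were 11.20, 9.85 and 9.85. The 3 arrays thus differed in their mock channel and not in their treated channel. The mean of 0.99 ± 0.81 (SD, n = 3) passed (limma adjusted p = 0.0292). It no longer passed without lung replicate 2 (0.76, adjusted p = 0.153) or without lung replicate 3 (0.74, adjusted p = 0.132). Fitting lung by itself ended the Tnf call as well (limma adjusted p = 0.0796). Dropping array 1 of bone marrow moved the adjusted p of Tnf in lung to 0.0537, and dropping array 2 there moved it to 0.0503. In bone marrow the ratios were 0.61, 0.71 and -0.07, with a mean of 0.42 ± 0.42 (SD, n = 3) that did not pass (adjusted p = 0.334, 95% interval -0.23 to 1.07).

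Lung replicate 1 also had the highest mock level of the 3 lung arrays for Il1a, Il1b, Il1rn, Il6, Il10, Il12b and Il18. It had the lowest for Tgfb1 (10.38 beside 10.50 and 10.47) and Osm (10.06 beside 10.54 and 10.37). Il1b in mock lung measured 13.59, 13.08 and 12.69 on a log2 intensity scale, and Il10 measured 7.42, 6.88 and 7.05. Il1a measured 7.32, 6.85 and 6.81. Replicate 1 gave the smallest ratio of the 3 lung arrays for Tnf, Il1a, Il1b, Il6, Il10 and Il12b, but not for Il1rn, Il18, Tgfb1 or Osm. The share of all genes with either pattern was not counted. The part of any single property of that array in this was not tested.

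**Figure D2:**
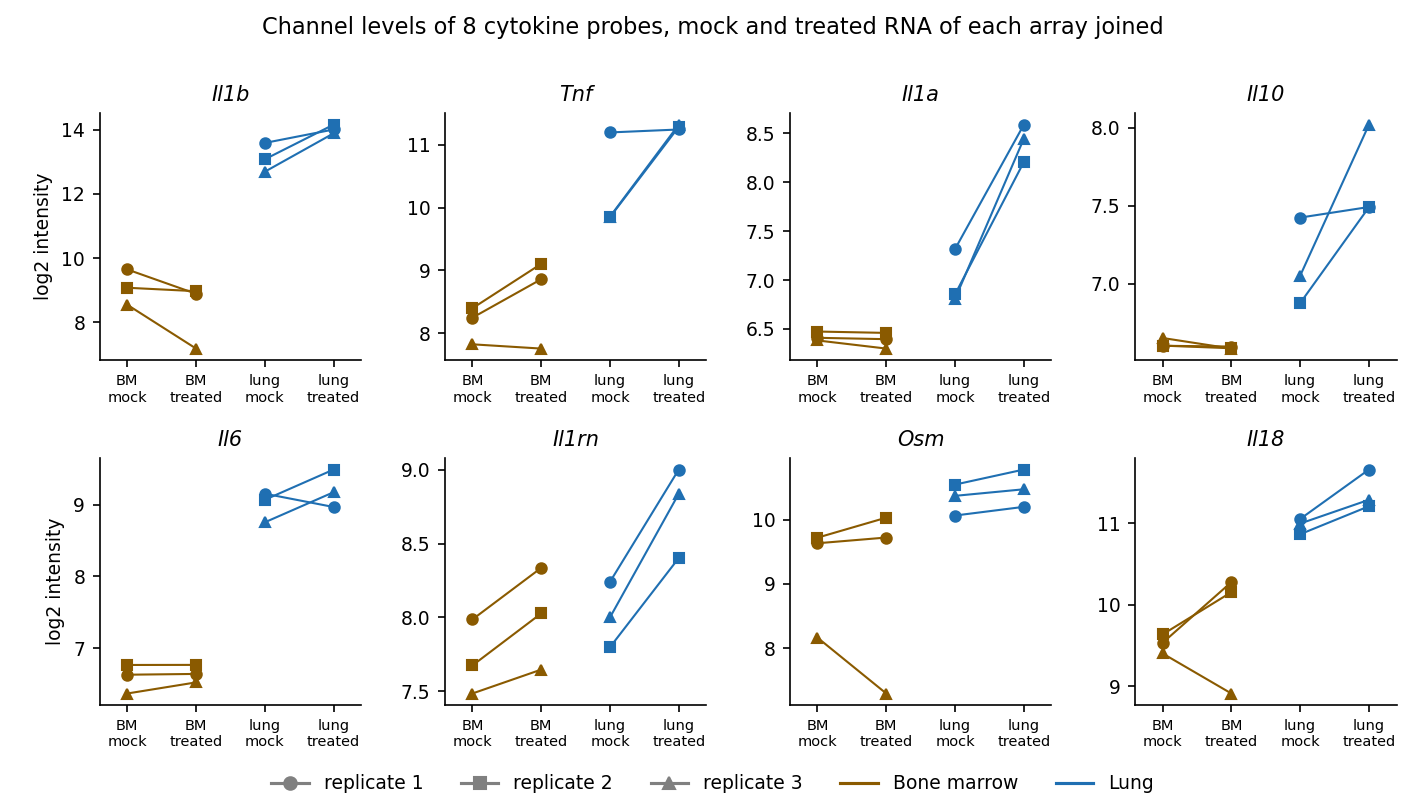
Log2 intensity of 8 cytokine probes in the mock and treated channel of each array, with the RNAs of 1 array joined by a line, bone marrow (BM) brown and lung blue, and a separate vertical scale per gene. For Tnf the treated lung points coincide near 11.3 while mock lung replicate 1 lies at 11.20 and the others at 9.85, and for Osm bone marrow replicate 3 lies below the other arrays in both channels.

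The gp130 cytokines did not pass in either tissue. Il6, which drives acute-phase and STAT3 responses, gave -0.19, 0.42 and 0.42 in lung, with lung replicate 1 again the lowest, and a mean of 0.22 ± 0.35 (SD, n = 3, limma adjusted p = 0.203). Without that array its mean was 0.42 (adjusted p = 0.00658). Osm, which encodes oncostatin M, gave 0.13, 0.23 and 0.10 in lung and 0.09, 0.31 and -0.87 in bone marrow. Its lung mean was 0.16 ± 0.07 (SD, n = 3, adjusted p = 0.582), with a 95% interval of -0.30 to 0.61. Bone marrow replicate 3 had a mock Osm level of 8.16 beside 9.63 and 9.72 on the others, so that this array stood apart in both channels.

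Of the suppressive cytokines, Il10, whose product inhibits macrophage and dendritic cell activation, gave 0.07, 0.62 and 0.97 on the lung arrays. The mean was 0.55 ± 0.46 (SD, n = 3), 1.47-fold (limma adjusted p = 0.0229), with the largest value on replicate 3. It did not pass once lung replicate 2 (0.52, adjusted p = 0.0998) or replicate 3 (0.34, adjusted p = 0.0971) was left out. A separate fit of lung also ended the call (adjusted p = 0.0852). Tgfb1, which encodes the latent growth factor TGF-beta 1, gave 0.14, 0.10 and -0.09 in lung and 0.00, -0.01 and -0.14 in bone marrow. These values lay on both sides of 0 and overlapped between the tissues. The mean was 0.05 ± 0.12 in lung (95% interval -0.11 to 0.21) and -0.05 ± 0.08 in bone marrow (95% interval -0.21 to 0.11; SD, n = 3), and neither passed (limma adjusted p = 0.644 and 0.653).

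Il12b encodes the p40 subunit shared by IL-12 and IL-23. It was not well above background on any mock lung array and was so on all 3 treated lung arrays, where its log2 ratios were 0.09, 0.17 and 0.10. Its signal over local background was 17.5 to 26.3 units in mock lung and 30.5 to 37.3 in treated lung. On these arrays negative control spots gave 13.8 to 16.7 units in the mock channel and 4.7 to 5.1 in the treated channel. The median signals were 71.6 to 80.1 and 144.1 to 151.8. The channels thus differed in scale, so the raw signals and the background calls do not by themselves show a rise. The treated mean was 1.07-fold the measured or the lowest detectable mock signal of each array, whichever was higher. That ratio does not establish a rise either. The fitted difference of 0.12 ± 0.04 (SD, n = 3) did not pass (limma adjusted p = 0.152). With the scanner software's processed signals it was 1.09 and passed (adjusted p = 0.0333), as did its tissue difference of 1.503 (adjusted p = 0.0481).

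The 5 members with 10 spots per array separate the error between spots of an array from the spread between arrays. That spread cannot be divided between the pools and the handling of each array, since each pair of pools met 1 array. For Tnf in lung the spots of an array had an SD of 0.02 to 0.03 on the log2 scale, against 0.81 between arrays. For Il1b they had an SD of 0.01 to 0.04 in lung and 0.04 to 0.05 in bone marrow, against 0.42 and 0.63 between arrays. The differences between arrays of these genes were therefore larger than the spot error. For Il12b in bone marrow the spot SD reached 0.10, above the SD of 0.06 between arrays.

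**Figure D3:**
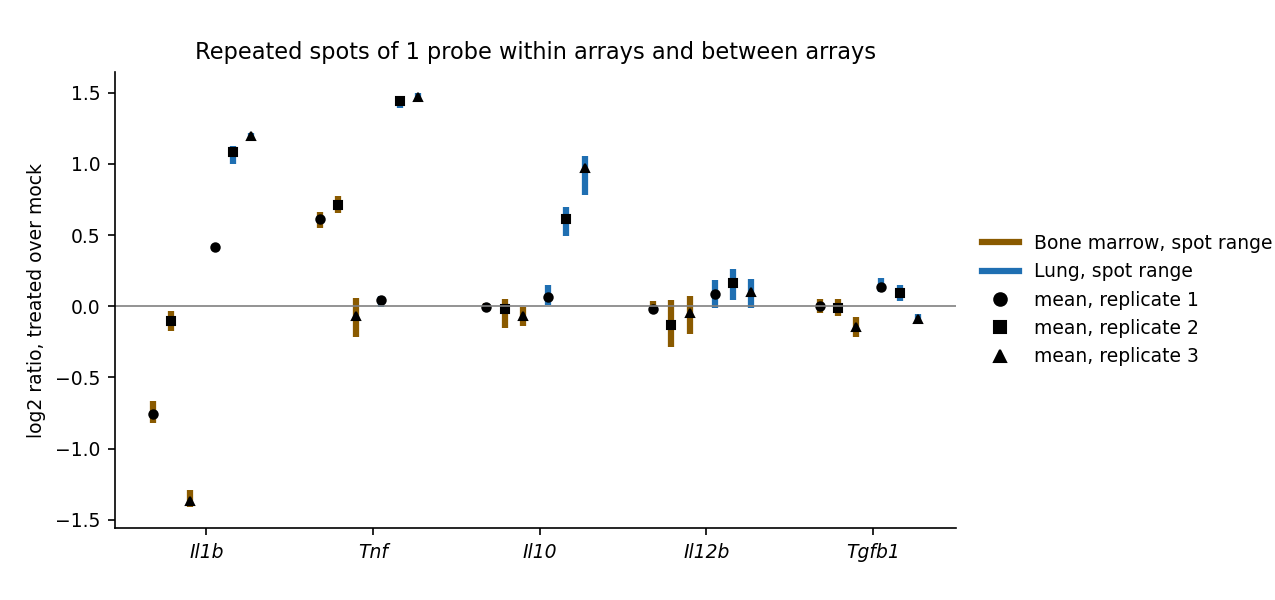
Log2 ratio of treated over mock for the 5 cytokine probes printed in 10 spots, with the mean of each array as a black symbol and the range of its spots as a coloured bar, bone marrow brown and lung blue. For Il1b and Tnf the bars are short beside the distance between arrays, and for Il12b they are as long as that distance.

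Among mock cells, 7 of 10 members were higher in lung than in bone marrow, against 29.6% of all genes, with a median log2 difference of 0.86 beside -0.04 over all genes. Il1a, Il6 and Il10, counted among the 7, passed the background filter only through lung arrays. Il1b was 16.3-fold higher (limma adjusted p = 1.35e-05), with mock lung levels of 12.69 to 13.59 and mock bone marrow levels of 8.55 to 9.65. Tnf was 4.43-fold higher (adjusted p = 0.000958), Il18 2.73-fold (adjusted p = 4.84e-06) and Osm 2.22-fold (adjusted p = 0.0277). The lung and bone marrow levels of these 4 genes did not overlap, and the share of all genes without overlap was not counted. Osm no longer passed with lung replicate 2 left out (adjusted p = 0.0781), nor with lung replicate 3 left out (adjusted p = 0.0513), and its log2 difference of 1.15 became 0.65 without bone marrow replicate 3. Against the measured or lowest detectable bone marrow signal, Il6 was 5.3-fold higher in mock lung (adjusted p = 3.34e-06). Il1a and Il10 were 1.47-fold and 1.41-fold higher in the same way (adjusted p = 0.00596 and 0.0107). Both were on the other side, at -0.01 and -0.07, when channels were scaled to their 75th percentile. With single arrays left out, the log2 difference fell as low as 2.30 for Il6, 0.41 for Il1a and 0.345 for Il10. In bulk RNA such as this, a change in the share of cells that make a transcript cannot be told apart from a change in the amount per cell.

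In treated cells the lung exceeded bone marrow for 8 of 10 members, against 28.4% of all genes, with a median of 1.53 beside -0.05 over all genes. Of these, Il1a, Il6, Il10 and Il12b passed the background filter only through lung arrays, the group in which they counted as higher. The treated Il1b level was 51-fold higher in lung (limma adjusted p = 2.02e-05) and that of Tnf 6.56-fold (adjusted p = 0.000167). Against the measured or lowest detectable bone marrow signal, Il1a was 4.01-fold higher (adjusted p = 4.3e-06) and Il10 2.11-fold (adjusted p = 0.000426). For Il10 the log2 difference was 0.47 and did not pass with channels scaled to their 75th percentile (adjusted p = 0.236). Il12b was 0.24 higher on the log2 scale (limma adjusted p = 0.0228), with mean levels of 6.63 in treated lung and 6.39 in treated bone marrow. It no longer passed with any single lung array or bone marrow replicate 2 left out (adjusted p 0.0597 to 0.0726). With replicate number as a block it did not pass either (adjusted p = 0.0622), while Osm did (adjusted p = 0.0458), and so did Il1rn among mock cells (adjusted p = 0.0454). For Il1a, Il1b, Il10, Il18 and Tnf the order was treated lung, mock lung and then both bone marrow groups, and neither lung group overlapped any other group. The share of all genes with such a separation was not counted. For Tnf the lowest treated lung level was 11.24 and the highest mock lung level 11.20, and the rise of Il18 in lung did not pass (limma adjusted p = 0.171). For Il6, Tgfb1 and Osm the treated and mock lung levels overlapped. For Tgfb1 the tissues did not differ past the threshold in mock cells (0.15, adjusted p = 0.104) or in treated cells (0.24, adjusted p = 0.0732). They did so with quantile normalization (0.27, adjusted p = 0.0121, and 0.33, adjusted p = 0.0295) and with 75th percentile scaling (0.52, adjusted p = 0.0351, and 0.57, adjusted p = 0.0335).

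The response itself, as lung minus bone marrow log2 ratio, was larger in lung for 3 members, against 9.78% of all genes. These were Il1a (1.46, limma adjusted p = 0.000764, with a bone marrow signal not well above background), Il1b (1.64, adjusted p = 0.017) and Il1rn (0.45, adjusted p = 0.0263). The Il1rn difference no longer passed in 10 of 16 alternatives, among them the replicate block (adjusted p = 0.0599), processed signals (0.12, adjusted p = 0.596) and any single bone marrow array left out (adjusted p 0.058 to 0.0685). Leaving out bone marrow replicate 1 (adjusted p = 0.0592) or lung replicate 2 (adjusted p = 0.0531) ended that of Il1b, and median centring ended all 3. Il10 and Tnf rose in lung and did not pass in bone marrow, but their tissue difference did not pass (0.58, adjusted p = 0.0972, and 0.57, adjusted p = 0.347). That of Il10 passed with processed signals (1.65, adjusted p = 0.0423). Without lung replicate 1 the differences of Il10 and Tnf passed (0.82, adjusted p = 0.00818, and 1.04, adjusted p = 0.0285). Il6 passed too (adjusted p = 0.0499), and Il1rn did not (adjusted p = 0.0537), so that 5 members passed in place of 3. Without bone marrow replicate 1 only 1 passed, Il1a.

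Of 20 genes for receptors and decoys of these and related cytokines, 9 rose and 2 fell in lung, against 34% of all genes called in either direction, with a median log2 ratio of 0.31 beside 0.01 over all genes. In lung, Lifr, a gp130 partner, rose by 1.61 ± 0.12 (SD, n = 3, limma adjusted p = 6.04e-05), and Tgfbr1, the TGF-beta type I receptor, rose by 1.43 ± 0.18 (adjusted p = 7.38e-05). Il1rl1, the IL-33 receptor, rose by 1.38 ± 0.34 (adjusted p = 0.00027), and Il10rb, a subunit of the IL-10 receptor, by 0.64 ± 0.08 (adjusted p = 0.00168). With median centring the first 3 still passed and Il10rb did not (adjusted p = 0.147). The TNF receptor genes Tnfrsf1a (0.06, adjusted p = 0.693) and Tnfrsf1b (-0.19, adjusted p = 0.349) did not pass.

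In bone marrow 4 of the 20 receptor genes rose and 3 fell, against 14.4% of all genes called in either direction, with a median of -0.02 beside 0.02. Il12rb1, the IL-12 receptor beta 1 chain, rose by 0.67 ± 0.25 (SD, n = 3, limma adjusted p = 0.0143). Il12rb2 was 1.24-fold higher in treated cells (adjusted p = 0.0433), its mock signal not being well above background. Il10ra, the ligand-binding IL-10 receptor chain, was at -0.68 ± 0.52 (adjusted p = 0.0363) and Tgfbr1 at -0.32 ± 0.13 (adjusted p = 0.045). Both were thus lower in treated bone marrow, and both were higher in treated lung (Il10ra 0.54 ± 0.06, adjusted p = 0.0392). The lung call of Il10ra held in only 10 of 16 alternatives, and was lost with processed signals, median centring, or any single lung array or bone marrow replicate 1 left out. In bone marrow the call of Il10ra held in 11 of 16 alternatives and that of Tgfbr1 in 10. A separate fit, or leaving out bone marrow replicate 1 or 2 or lung replicate 2, ended the bone marrow call of Il10ra. Leaving out any single bone marrow array, or lung replicate 2 or 3, ended that of Tgfbr1. The tissue difference was 1.21 for Il10ra (adjusted p = 0.0151) and 1.76 for Tgfbr1 (adjusted p = 0.000522), and both ended with median centring. Il1r2, the IL-1 decoy receptor, was named after its value was seen, and rose in bone marrow by 1.26 ± 0.42 (SD, n = 3, adjusted p = 0.0455). Median centring ended all bone marrow calls given here and in the following paragraphs.

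**Figure D4:**
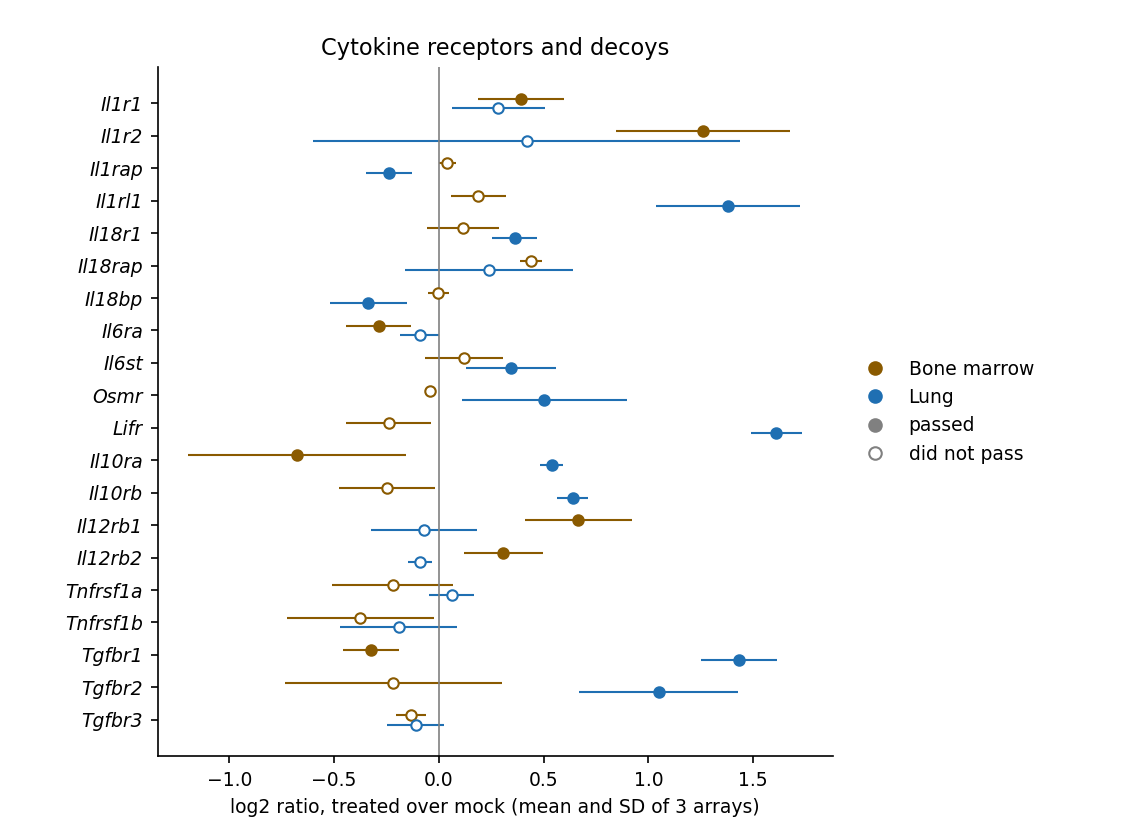
Mean log2 ratio of treated over mock for 20 cytokine receptor and decoy genes in bone marrow (brown) and lung (blue), with bars of 1 SD over 3 arrays and filled points for an adjusted p under 0.05. Tgfbr1 and Il10ra lie left of 0 in bone marrow and right of it in lung, and Lifr, Tgfbr1 and Il1rl1 lie farthest right in lung.

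Of 18 measured genes for cytokine processing and release, 4 rose and 5 fell in lung, against 34% of all genes called there in either direction. Casp1, the protease that matures IL-1 beta and IL-18, fell by 0.59 ± 0.16 on the log2 scale (SD, n = 3, limma adjusted p = 0.00147), and Casp4, the sensor of the non-canonical inflammasome, fell by 0.93 ± 0.37 (adjusted p = 0.00329), both calls ending with median centring. Ltbp3 and Lrrc32, which hold latent TGF-beta, rose by 1.28 ± 0.19 (adjusted p = 0.000121) and 1.00 ± 0.25 (adjusted p = 0.000317). Casp8 (0.15, adjusted p = 0.148) and Ltbp1 (-0.05, adjusted p = 0.874), of the same list, did not pass. In bone marrow 1 rose and 5 fell, against 14.4% of all genes called there. The ATP-gated channel gene P2rx7 fell by 0.72 ± 0.18 (adjusted p = 0.00451), the pore-forming gasdermin gene Gsdmd fell by 0.52 ± 0.07 (adjusted p = 0.00533), Itgav fell by 0.48 ± 0.03 (adjusted p = 0.0102), and Thbs1, a TGF-beta activator, rose by 1.90 ± 1.02 (adjusted p = 0.0165). Gsdmd also fell in lung (-0.28, adjusted p = 0.017) and Casp4 in bone marrow (-0.57, adjusted p = 0.0476), while P2rx7 rose in lung (0.45, adjusted p = 0.00788). Of 16 alternatives the lung call of Gsdmd held in 12 and the bone marrow call of Casp4 in 10. Median centring ended the lung calls of Gsdmd and P2rx7.

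Among 22 other cytokine genes, 4 rose and 1 fell in lung, and 2 rose and 1 fell in bone marrow, against 34% and 14.4% of all genes called in either direction, so the lung share was below that of all genes and the bone marrow share near it. In lung the B cell survival factor gene Tnfsf13b rose by 1.10 ± 0.33 (SD, n = 3, limma adjusted p = 0.000588), Tgfb3 by 0.89 ± 0.27 (adjusted p = 0.000714) and Ebi3, a subunit of IL-27 and IL-35, by 0.99 ± 0.33 (adjusted p = 0.00164). Il1f9 was 1.52-fold higher against the measured or lowest detectable mock signal (adjusted p = 0.0048). Median centring ended the lung calls of Ebi3 and Il1f9. In bone marrow Ltb, the lymphotoxin beta gene, rose by 0.75 ± 0.16 (adjusted p = 0.00559), Ebi3 rose by 0.58 ± 0.28 (adjusted p = 0.0341), and Il15 fell by 0.31 ± 0.09 (adjusted p = 0.0292). Ltb fell in lung by 0.57 ± 0.25 (adjusted p = 0.0048), and that call ended with median centring. Of 11 genes that control cytokine mRNA decay and translation, 2 rose and 1 fell in lung and 1 fell in bone marrow, beside 34% and 14.4% of all genes. Zfp36l1, which binds AU-rich elements, rose in lung by 1.45 ± 0.35 (adjusted p = 0.000907), Rc3h1 rose by 0.29 ± 0.03 (adjusted p = 0.00867), and Hnrnpd fell by 0.41 ± 0.10 (adjusted p = 0.00593), the last 2 calls ending with median centring. Zfp36l2 fell in bone marrow by 0.54 ± 0.32 (adjusted p = 0.0219).

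Of 17 genes of cytokine feedback and response, 6 rose and 3 fell in lung, against 34% of all genes called, and 2 fell in bone marrow, near the 14.4% of all genes called. Nfkbiz, a nuclear cofactor of NF-kB, rose in lung by 0.87 ± 0.08 (SD, n = 3, limma adjusted p = 0.000616), Tnip3 rose by 0.47 ± 0.07 (adjusted p = 0.00114), and Skil, a TGF-beta-induced repressor of SMADs, rose by 0.96 ± 0.41 (adjusted p = 0.00371). Irak3, an inhibitor of IL-1 receptor and Toll-like receptor signalling, fell by 0.61 ± 0.12 in lung (adjusted p = 0.0017) and by 0.40 ± 0.19 in bone marrow (adjusted p = 0.0251), and its lung call ended with median centring. Stat3 fell in bone marrow by 0.37 ± 0.10 (adjusted p = 0.0441) and in lung by 0.53 ± 0.25 (adjusted p = 0.00493). Of 16 alternatives its bone marrow call held in 9 and its lung call in 15, the latter ending with median centring.

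Markers of other cell types moved in the lung arrays beside these cytokine changes. All 10 macrophage markers, 9 of 9 alveolar macrophage markers, 6 of 9 neutrophil markers, 6 of 8 lung epithelial markers and 7 of 8 endothelial markers rose in treated lung, and 6 of 7 B cell markers fell. Of 10 T and NK cell markers 1 rose and 3 fell. Over all genes in lung, 20% rose and 34% were called in either direction, and the T and NK cell count was near the latter. Of the 9 monocytic MDSC markers 2 rose and 3 fell in lung, Ccr2 among those that fell (-1.12, limma adjusted p = 0.00223). In bone marrow 1 rose and 3 fell, against 14.4% of all genes called there in either direction. Among those that fell were Ccr2 (-0.84, adjusted p = 0.0196) and Csf1r (-1.14, adjusted p = 0.00291), which was higher in treated lung (0.76, adjusted p = 0.00309). The summed intensity of the macrophage list was 22269 to 30952 on mock lung arrays and 92091 to 121181 on treated lung arrays, and that of the neutrophil list was 18115 to 48382 and 54234 to 131559. In bone marrow the macrophage sum was 4323 to 4528 in mock and 3525 to 5112 in treated cells, and the neutrophil sum was 350716 to 362761 in mock and 336586 to 394319 in treated cells, above that of either lung group. The lowest adjusted p among the 9 neutrophil markers in bone marrow was 0.0637, for Mmp8. The part of these cell types in the cytokine changes of lung, or in the differences in response and level between lung and bone marrow, was not tested.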

How the data were processed

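Expression was measured on 6 two-colour Agilent arrays, 3 per tissue. Spot intensity was read by the authors from Feature Extraction 10.7.3.1 scans, per the file headers, which also place probes on mm9. The deposited log10 ratio of the scanner software's processed signals, Cy5 over Cy3, served as a check of direction, per the file headers. The deposited matrices hold log2 ratios made by the authors with limma, per the submitters' processing notes, and were used only as a check. They correlated at 0.9995 to 1 with Cy5 over Cy3 across 43173 spots, with column medians of -0.01 to 0.01. With the log ratio of the scanner software they correlated less, at 0.509 to 0.791. The scale and direction of the matrices were read from the match with Cy5 over Cy3, since the settings are not given in the sources used here.

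Mean spot intensity and median local background were corrected by normexp (offset 50) and loess in limma 3.58.1 (R 4.3.3). Control and outlier-marked spots (21 of the members') were left out and spots of a probe averaged. Of 39429 probes, 27693 were kept that exceeded background clearly on 2 or more arrays of a tissue and channel, with the brightest probe per gene. All 6 arrays entered 1 limma fit with a mean per tissue, a shared spread and Benjamini-Hochberg adjustment over 22096 genes, at 0.05. Channel levels were compared after equalising mean intensities of the arrays (Aquantile). The code was tested on simulated data.

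The members and gene lists were chosen with earlier results of these data known. Of each list, up to 4 genes per tissue with the smallest p and the same sign on all 3 arrays were named. The p-values measure the spread between these arrays, each with its own pools. After normexp, negative control spots had a median Cy5 signal of 240.3 for bone marrow replicate 1, of 87 for lung replicate 2 and of 13.3 to 16.0 elsewhere. Alternatives covered background, normalization, filters, probes, fits and left-out arrays.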

Additional observations from a re-analysis of the deposited data

Results flagged for a closer look

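The response to treatment differed between the tissues, by the limma test of lung minus bone marrow log2 ratios (adjusted p under 0.05), for the cytokine genes Il1a (1.46), Il1b (1.64) and Il1rn (0.45). The difference of Il1rn was lost in 10 of 16 alternatives, and that of Il1b without bone marrow replicate 1 or lung replicate 2. Il1b was above 0 on all 3 lung arrays and below 0 on all 3 bone marrow arrays. Among the named genes of the receptor, processing, cytokine and feedback lists, the lung response was the higher one for P2rx7 (1.17), Itgav (0.54), Il10ra (1.21), Tgfbr1 (1.76), Lifr (1.85), Il1rl1 (1.19), Il10rb (0.89), Ltbp3 (1.00), Lrrc32 (0.98), Tnfsf13b (1.39), Tgfb3 (1.00), Nfkbiz (1.07), Tnip3 (0.43), Skil (1.16) and Zfp36l1 (0.91). It was the lower one for Ltb (-1.32) and Il12rb1 (-0.74). Median centring ended the difference of each of these 17 genes, and of 16 alternatives Zfp36l1 passed in 7, Tnip3 in 10, Itgav and Il12rb1 in 11 each, and Skil in 13. For each of these, an effect of the slide cannot be told apart from one of tissue. In bone marrow Il1a was not well above background in either channel, and Il1rl1 was not in the mock channel. Lrrc32 and Tgfb3 were each well above background on 1 mock and 0 treated bone marrow arrays. The bone marrow ratios of these genes therefore do not show an unchanged transcript.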

How the results depend on the processing

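All 16 alternatives of each treated against mock comparison gave Il1a and Il1rn as higher in lung, with an adjusted p under 0.05 throughout. The number of members called in bone marrow (1) became 2 with the background of negative controls, and 0 with median centring, with scaling between arrays or with a separate fit. It ran from 0 to 2 with single arrays left out. The number in lung (5) became 2 with median centring and 3 with scaling, and ran from 2, without lung replicate 2 or 3, to 6 without lung replicate 1 or bone marrow replicate 3. The number for the tissue difference (3) became 0 with median centring and ran from 1 to 5. Mock lung over mock bone marrow (7) ran from 6 to 8, and treated (8) from 6 to 9, with single arrays left out. With all genes, median centring called 0 in bone marrow beside 3180, 963 in lung beside 7510 and 33 for the difference beside 3368, and it moved the median of all genes to 0.20 in bone marrow and 0.12 in lung. Processed signals called 6464 genes in bone marrow and negative control backgrounds 6142. Left-out arrays gave 995 to 4078 in bone marrow and 1504 to 2848 for the difference.

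Directions turned for some values, and the cause was not tested. With median centring in bone marrow Gsdmd was 0.018, Il6 -0.17, Osm 0.11, Stat3 0.16, Tgfb1 0.41 and Zfp36l2 0.15, and the tissue differences of Il18 and Tgfb1 were -0.039 and -0.15. With processed signals Il1a in bone marrow was 0.20, Tgfb1 in lung -0.005, and the tissue differences of Il1rl1 and Il6 were each -0.16. Scaling gave -0.10 for the Il18 difference. Without bone marrow replicate 3 the Il18 difference was -0.218, that of Osm -0.043, and Osm in bone marrow 0.20. Over all left-out arrays these ran up to 0.399, up to 0.546 and down to -0.389. Scaling to the 75th percentile put mock lung below mock bone marrow for Il10 (-0.066), Il12b (-0.82) and Il1a (-0.011), and treated lung below treated bone marrow for Il12b (-0.68).

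Il1b in lung did not pass with processed signals (0.92, adjusted p = 0.117) or scaling (0.88, adjusted p = 0.0597), nor did Tnf (0.98, adjusted p = 0.0935, and 1.00, adjusted p = 0.0738). A replicate block gave 2 members for the tissue difference, 8 for mock and 8 for treated levels, and changed no member's call beyond those given with the results. Same-numbered arrays of the tissues correlated at 0, 0.12 and 0.05, which cannot show whether their pools came from the same mice. The sources used here do not pair the numbers across tissues. Signal over background limits Il1a, Il6, Il10 and Il12b in bone marrow and Il12b in mock lung.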
